A study of Oryza sativa Indica Group with 6 samples.

Results

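The B, C, and D class MADS-box genes of the rice flower were followed in developing panicles of 0 to 4 cm from the wild type and from the *ssh1* mutant. The 9 genes were taken by locus ID from a list set by hand, and all 9 were found among the 55982 locus IDs kept. No rule on their values was used, but the list was set with earlier results of these data known. They are *OsMADS2*, *OsMADS4*, and *OsMADS16* of the B class, *OsMADS3* and *OsMADS58* of the C class, and *OsMADS13* and *OsMADS21* of the D class. The list also holds *OsMADS29*, a B sister gene, and *OsMADS32*, which belongs to none of these classes, so that the class name covers 7 of the 9. The wild type is YIL100, an introgression line with *Oryza rufipogon* segments in the *indica* variety Teqing, and *ssh1* (labelled SSH1-/-) is 1 mutant line from an EMS-mutagenized YIL100 population. Both carry *SH4*/*SHA1* from the wild rice donor and *qSH1* from Teqing. The mutant carries a C-to-A change in the ninth intron of *SNB*, and an EMS line can carry other changes. Each genotype has 3 replicates, each a pool of plants, and the labels name no treatment. The panicles were collected by length, so that each pool spans a range of floral stages.

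In flowering plants, B class proteins act with C class proteins in the stamens, C class proteins act in the carpel and stop the floral meristem, and D class proteins act in the ovule. B class function needs a pair of unlike proteins, 1 of the PISTILLATA (PI) type and 1 of the APETALA3 (AP3) type. In rice the B class genes specify stamens and lodicules, the small organs that open the floret, while the C class work is divided between a pair of duplicated genes. *SNB* encodes an APETALA2-like factor that acts earlier, when a spikelet meristem becomes a floral meristem.

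Expression was given as FPKM, which divides the fragments on a gene by its length and by the size of the library, so that levels of different genes can be set side by side. The sums of FPKM per sample lay between 832551 and 978426, and the number of reads behind a value is not known from these tables. The 7 members that averaged 1 FPKM or more across the samples were tested among 18537 such genes with limma on log2(FPKM + 1), a linear model whose variances are moderated across genes. A gene is said to have risen or fallen at a Benjamini-Hochberg adjusted p below 0.05, and it is said in addition whether it passed the stricter thresholds of the study (2-fold or more, with an adjusted p below 0.001). *SNB* (LOC_Os07g13170) was at 20.9, 16.9, and 18.03 FPKM in the wild type and at 7.97, 7.44, and 8.86 FPKM in *ssh1*, lower in every *ssh1* sample. Its log2 fold change of -1.11 (limma adjusted p = 0.000725) passed the thresholds of the study, and after median-of-ratios scaling it was -0.98, just under 2-fold. The paper reports altered splicing of *SNB* in *ssh1*, while RT-qPCR in an earlier part of the gene gave similar levels in both genotypes. Which part of the transcript the lower FPKM of the whole gene reflects was not tested. The median log2 fold change over all tested genes was -0.14, and median-of-ratios scaling, which aligns the samples on their typical gene, brought it to -0.01. Changes of the tested members are therefore given on both scales, and those of other loci where a call differs between them.

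All 7 tested members had a lower mean in *ssh1*, and 4 of the 7 fell. These were the 3 B class genes and *OsMADS13* of the D class. Among all tested genes 28.0% fell by the same rule and 17.0% rose, so a fall was common in this comparison and the count of 4 is to be read against that share. The same 4 fell after median-of-ratios scaling, where 19.2% of all tested genes fell. None of the 7 passed the thresholds of the study in limma, against 5.11% of all tested genes and 1.92% that were past them and lower. The study used Cuffdiff, which called more genes at these thresholds, so that this count holds for limma only. In 5 of the 7 every *ssh1* sample lay below every wild-type sample, as in 38.0% of all tested genes. For the 7 the median of the log2 fold changes was -0.54, and -0.41 after median-of-ratios scaling. The RNA comes from whole panicles, so that fewer cells of a type and less RNA per cell cannot be told apart.

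**Figure D1:**
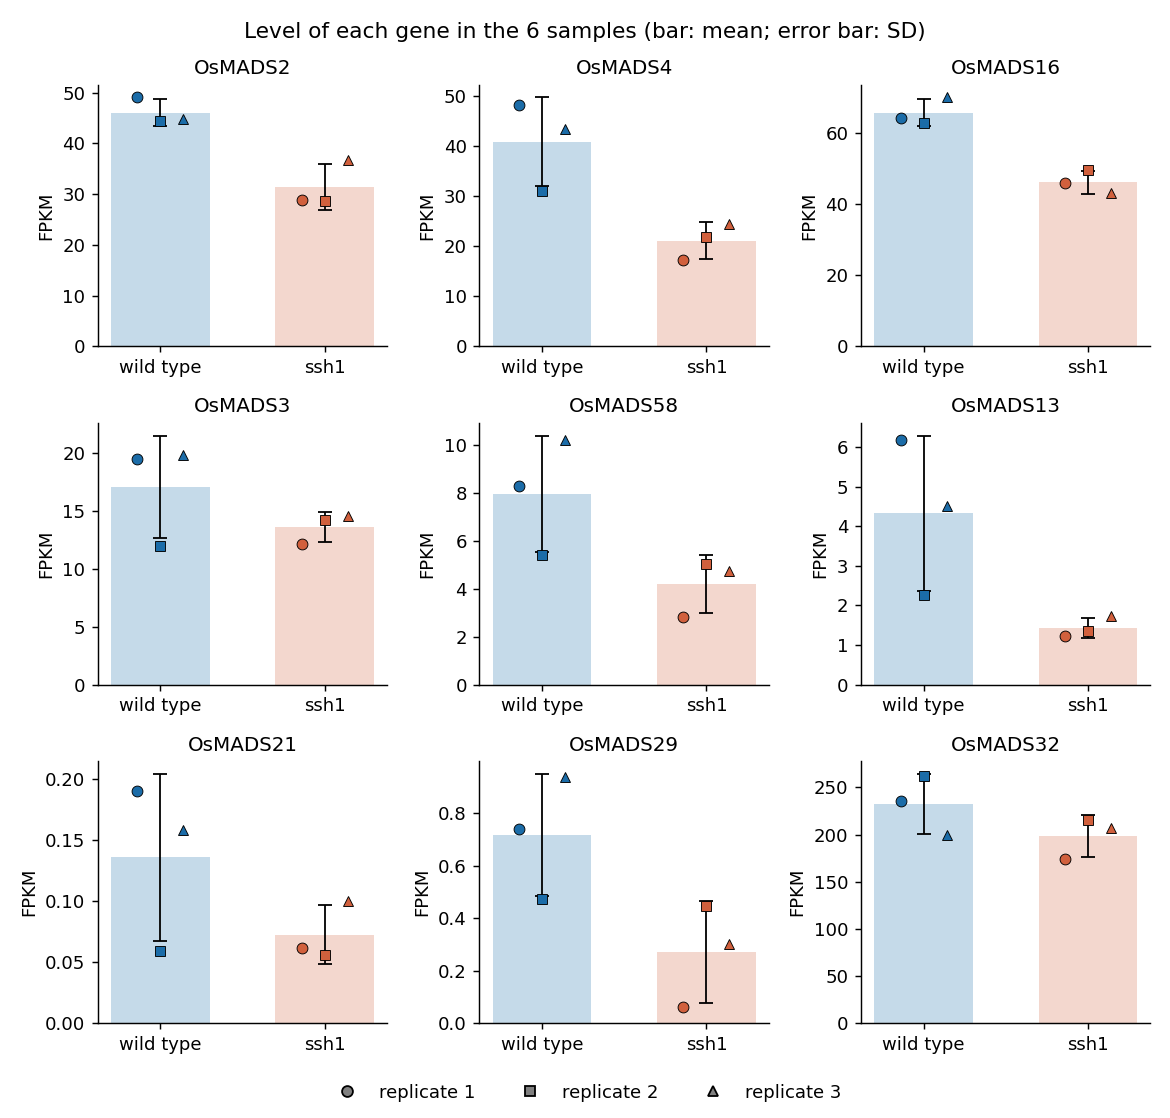
FPKM of the 9 genes (vertical axes, each from 0) in the wild type (blue) and *ssh1* (orange), with 1 point per replicate, bars for the mean, and error bars for the SD of 3 replicates. The 3 B class genes in the top row and *OsMADS58*, *OsMADS13*, and *OsMADS29* have every *ssh1* point below every wild-type point, whereas *OsMADS3*, *OsMADS21*, and *OsMADS32* overlap.

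*OsMADS16* (LOC_Os06g49840, chromosome 6), the AP3-type gene also known as *SUPERWOMAN1*, whose loss in rice turns stamens into carpels, was the highest of the B class genes. It was at 64.2, 63.0, and 70.1 FPKM in replicates 1 to 3 of the wild type and at 45.9, 49.6, and 43.1 FPKM in those of *ssh1*. The groups were well apart, with the highest *ssh1* sample at 49.6 and the lowest wild-type sample at 63.0 FPKM. The mean fell from 65.8 ± 3.79 to 46.2 ± 3.28 FPKM (SD, n = 3 each), a loss of 29.7%. The log2 fold change was -0.50 (SE 0.08, limma adjusted p = 0.00384), and -0.36 after median-of-ratios scaling (limma adjusted p = 0.025). Its replicates were close in both genotypes, with SDs of 5.77% and 7.09% of the mean, so that a change of this modest size stood clear of the spread.

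*OsMADS2* (LOC_Os01g66030, chromosome 1) and *OsMADS4* (LOC_Os05g34940, chromosome 5) encode the PI-type partners. *OsMADS2* is known above all for its part in lodicules, and the pair act together in stamens. *OsMADS2* was at 49.0, 44.3, and 44.8 FPKM in the wild type and at 28.9, 28.7, and 36.6 FPKM in *ssh1*. Replicate 3 of *ssh1* was nearest to the wild type but did not reach it. Its mean fell by 31.8%, from 46.0 ± 2.61 to 31.4 ± 4.52 FPKM (SD, n = 3 each), with a log2 fold change of -0.54 (SE 0.11, limma adjusted p = 0.00966) and of -0.41 after median-of-ratios scaling (limma adjusted p = 0.0204). *OsMADS4* was at 48.1, 31.0, and 43.4 FPKM in the wild type and at 17.2, 21.8, and 24.5 FPKM in *ssh1*. The groups did not overlap, although replicate 2 of the wild type lay well below the other wild-type samples. The mean of *OsMADS4* fell by 48.3%, from 40.9 ± 8.85 to 21.1 ± 3.71 FPKM (SD, n = 3 each), the largest loss of the 3 B class genes. Its log2 fold change was -0.91 (SE 0.20, limma adjusted p = 0.0121) and -0.77 after median-of-ratios scaling (limma adjusted p = 0.0232).

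*OsMADS3* (LOC_Os01g10504, chromosome 1) and *OsMADS58* (LOC_Os05g11414, chromosome 5) are the duplicated C class genes, of which *OsMADS3* is best known for stamen identity and *OsMADS58* for floral meristem determinacy and carpel form. Neither fell by the rule used here. *OsMADS3* was at 19.5, 11.99, and 19.8 FPKM in the wild type and at 12.2, 14.2, and 14.5 FPKM in *ssh1*. The groups overlapped, since replicate 2 of the wild type was below all 3 *ssh1* samples. The means were 17.1 ± 4.40 and 13.6 ± 1.27 FPKM (SD, n = 3 each). The log2 fold change was -0.28, with a 95% interval from -0.76 to 0.20 (limma adjusted p = 0.286), which holds both no change and a loss as large as those of the B class genes *OsMADS2* and *OsMADS16*. After median-of-ratios scaling it was -0.15 (limma adjusted p = 0.586). *OsMADS58* was at 8.30, 5.41, and 10.2 FPKM in the wild type and at 2.81, 5.04, and 4.76 FPKM in *ssh1*. Here the groups did not overlap, but replicate 2 of the wild type lay only just above replicate 2 of *ssh1*. Its means were 7.98 ± 2.43 and 4.20 ± 1.21 FPKM (SD, n = 3 each), 47.4% lower in *ssh1*, with a log2 fold change of -0.78 (95% interval -1.42 to -0.13, limma adjusted p = 0.0544) and of -0.66 after median-of-ratios scaling (limma adjusted p = 0.0984).

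*OsMADS13* (LOC_Os12g10540, chromosome 12), the D class gene that specifies ovule identity in rice, had the largest change of the tested members. It was at 6.18, 2.27, and 4.52 FPKM in the wild type and at 1.22, 1.35, and 1.72 FPKM in *ssh1*. The *ssh1* samples were close together and all below the lowest wild-type sample, replicate 2. The mean fell from 4.33 ± 1.96 to 1.43 ± 0.262 FPKM (SD, n = 3 each), 3.02-fold on the FPKM scale. The log2 fold change of -1.06 (SE 0.29, limma adjusted p = 0.0277) is smaller than that ratio because 1 FPKM was added to low values. It was -0.97 after median-of-ratios scaling (limma adjusted p = 0.0382). The call was lost without replicate 1 or 3 of the wild type (limma adjusted p = 0.0736 and 0.0872) and without replicate 1 or 2 of *ssh1* (limma adjusted p = 0.0726 and 0.0566), while the log2 fold change stayed between -1.38 and -0.81 whichever sample was left out.

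*OsMADS21* and *OsMADS29* were too low to be tested. *OsMADS21* (LOC_Os01g66290, chromosome 1), the other D lineage gene, was at 0.190, 0.0586, and 0.158 FPKM in the wild type and at 0.0616, 0.0552, and 0.0997 FPKM in *ssh1*. Every value was far below 1 FPKM, and the groups overlapped. *OsMADS29* (LOC_Os02g07430, chromosome 2), which is known for its role in the maternal tissues of the developing rice seed, was at 0.739, 0.474, and 0.939 FPKM in the wild type and at 0.0623, 0.447, and 0.303 FPKM in *ssh1*. The *ssh1* samples were all lower, with replicate 2 of each genotype almost level (two-sided exact permutation p = 0.1, the lowest that 3 against 3 can reach). The error of such low values is not known here, and no fold change is drawn from them.

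*OsMADS32* (LOC_Os01g52680, chromosome 1), a gene known from grasses and other monocots that takes part in floral organ identity in rice, was by far the most abundant of the 9. It was at 236, 263, and 199 FPKM in the wild type and at 174, 216, and 207 FPKM in *ssh1*. The groups overlapped. The log2 fold change was -0.22, with a 95% interval from -0.54 to 0.09 (limma adjusted p = 0.204), and -0.08 after median-of-ratios scaling, close to the typical gene. *OsMADS32* alone made up 55.9% ± 5.93 of the summed FPKM of the 9 genes in the wild type and 62.6% ± 1.26 in *ssh1* (SD, n = 3 each).

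**Figure D2:**
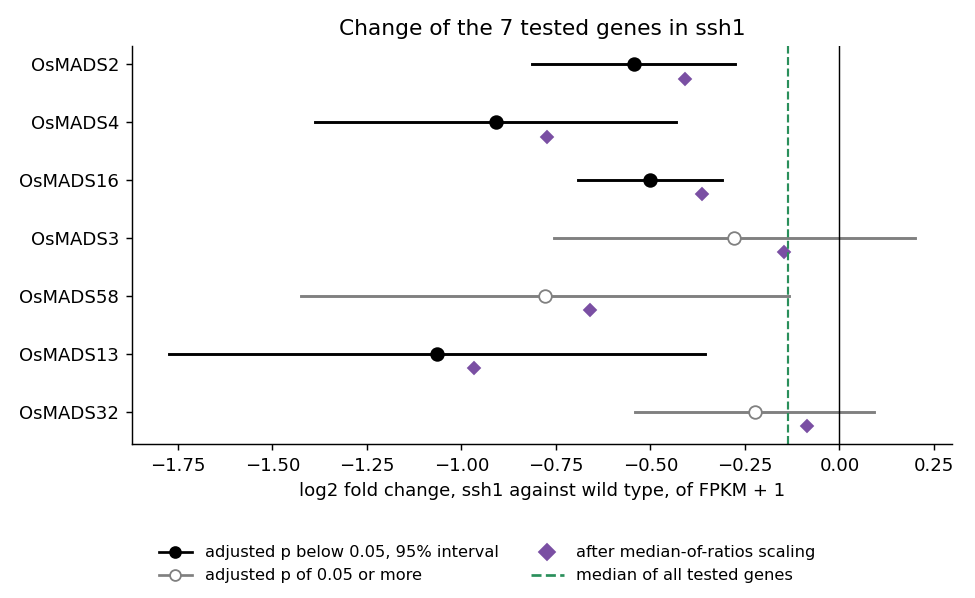
Log2 fold change in *ssh1* relative to the wild type, on the scale of log2(FPKM + 1), for the 7 tested genes (horizontal axis), with 95% intervals from limma (lines) and the value after median-of-ratios scaling (diamonds). Filled circles mark an adjusted p below 0.05 and open circles one of 0.05 or more, and the dashed line is the median of all 18537 tested genes, at -0.14.

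The order of the 9 levels was the same in both genotypes. From the top it ran *OsMADS32*, *OsMADS16*, *OsMADS2*, *OsMADS4*, *OsMADS3*, *OsMADS58*, *OsMADS13*, *OsMADS29*, and *OsMADS21*, that is, B class genes above C class genes and these above the D class and B sister genes. In the wild type the replicates of *OsMADS2* and *OsMADS4* overlapped, as did those of *OsMADS58* and *OsMADS13*, and all other neighbours were apart. In *ssh1* only *OsMADS29* and *OsMADS21* overlapped. The replicates of the summed B class genes were at 161, 138, and 158 FPKM in the wild type and at 92.0, 100.1, and 104 FPKM in *ssh1*, without overlap. Those of the summed C class genes, at 27.8, 17.4, and 29.99 FPKM against 14.97, 19.2, and 19.3 FPKM, overlapped through replicate 2 of the wild type.

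Ratios within a sample do not depend on how the samples are scaled, and 4 of them were compared between the genotypes. The ratio of *OsMADS3* to *OsMADS58* was 2.34, 2.22, and 1.93 in the wild type and 4.33, 2.81, and 3.05 in *ssh1*. Every *ssh1* sample thus held relatively more *OsMADS3*, with a difference of 0.63 on the log2 scale (1.11 ± 0.14 against 1.74 ± 0.33, SD, n = 3 each; two-sided exact permutation p = 0.1, adjusted p = 0.4 over the 4 ratios). Since 3 against 3 cannot go below 0.1, no ratio could pass 0.05. The ratio of *OsMADS2* to *OsMADS4* was 1.02, 1.43, and 1.03 in the wild type and 1.68, 1.32, and 1.496 in *ssh1*. Replicate 2 of the wild type overlapped with *ssh1* here (log2 difference 0.38, exact permutation test, p = 0.2). The PI-type genes summed and set against their AP3-type partner *OsMADS16* gave ratios of 1.51, 1.195, and 1.26 in the wild type and 1.004, 1.02, and 1.42 in *ssh1* (log2 difference -0.22, exact permutation test, p = 0.3). The C class genes summed and set against *OsMADS16* differed by 0.05 on the log2 scale (exact permutation test, p = 0.8), and this difference changed sign without replicate 2 of the wild type (-0.17).

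**Figure D3:**
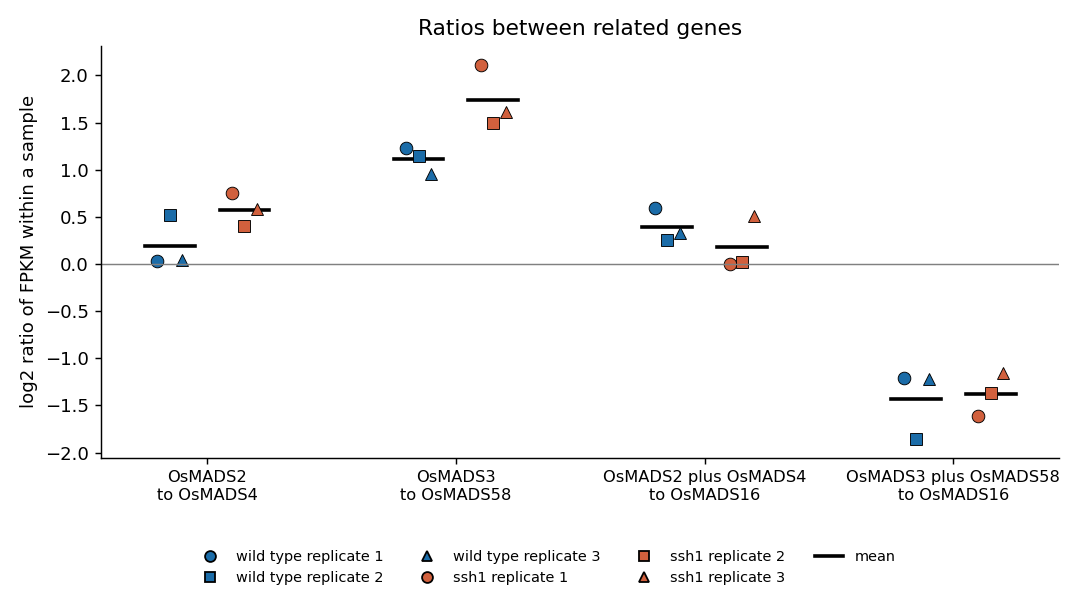
Log2 ratios of FPKM within each sample (vertical axis) for 4 pairs or sums of genes, with 1 point per replicate of the wild type (blue) and *ssh1* (orange) and a line at each mean. The ratio of *OsMADS3* to *OsMADS58* is the one whose groups do not overlap, with the wild type between 0.95 and 1.23 and *ssh1* between 1.49 and 2.11.

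Replicate 2 of the wild type was low for most of these genes, though not for them alone. It was the lowest wild-type sample in 8 of the 9, *OsMADS32* being the exception. It was also the lowest in 8 of 13 other MADS-box loci, 5 of 8 regulators of floral organs, and 7 of 11 anther loci. This held for 0 of 7 branching loci and 1 of 4 leaf loci. These lists are described below, and the share over all genes was not counted. Relative to the mean of replicates 1 and 3, replicate 2 of the wild type held 0.425 of *OsMADS13*, 0.584 of *OsMADS58*, 0.612 of *OsMADS3*, and 0.677 of *OsMADS4*, against 0.945 of *OsMADS2* and 0.939 of *OsMADS16*. The low genes *OsMADS21* and *OsMADS29* were at 0.337 and 0.565 of that mean. *OsMADS2* and *OsMADS16* were thus the members for which this sample was low by the least. Without it 6 of the 7 tested members fell, and *OsMADS32* (limma adjusted p = 0.474) was the one that did not. In the same fit 18.8% of all tested genes fell, but the sample left out was picked by its low values in the members. The member count and that share are therefore not alike, and no conclusion is drawn from them. *OsMADS3* then had a log2 fold change of -0.50 (SE 0.11, limma adjusted p = 0.0234) and *OsMADS58* of -1.004 (SE 0.24, limma adjusted p = 0.0325). The statement that neither C class gene fell thus did not hold in this fit. With all 6 samples *OsMADS58* was already near the limit (limma adjusted p = 0.0544, and 0.04 with sample quality weights). The values of *OsMADS4* and *OsMADS13* were -1.09 and -1.38 without replicate 2 of the wild type. When replicate 1 or replicate 3 of the wild type was left out instead, 3 members fell in either fit. Beside them, 3288 of 18546 tested genes fell without replicate 1 and 3503 of 18517 without replicate 3.

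**Figure D4:**
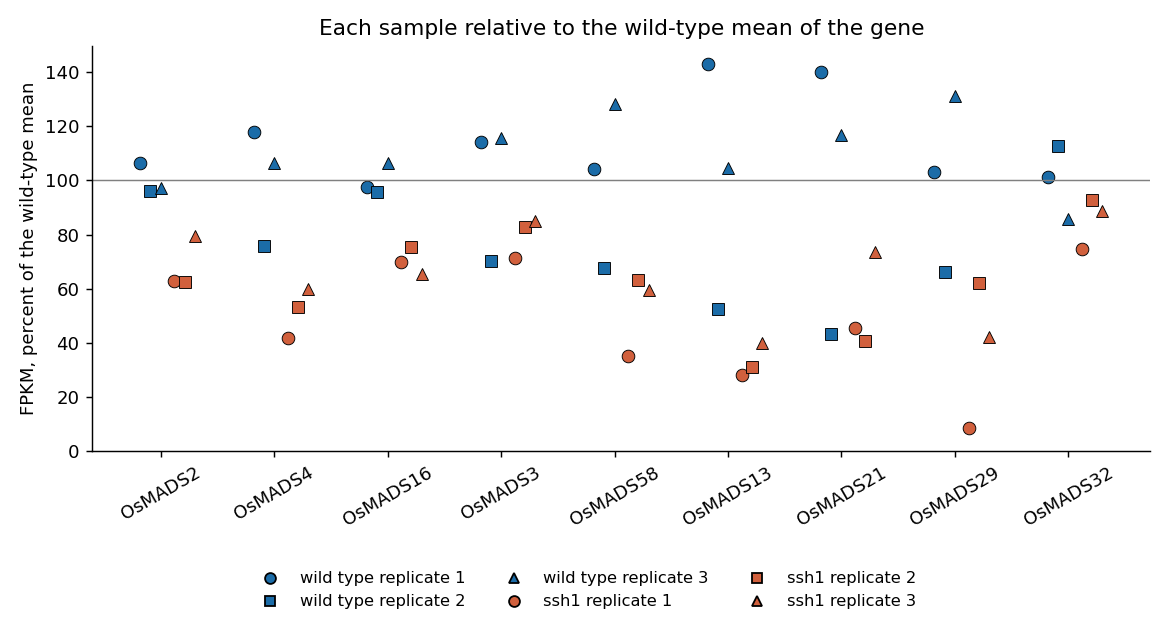
FPKM of each sample as a percentage of the wild-type mean of the same gene (vertical axis) for the 9 genes (horizontal axis), with blue points for the wild type and orange points for *ssh1*. Replicate 2 of the wild type (blue squares) is the lowest blue point in 8 of the 9 genes and lies below all 3 *ssh1* points in *OsMADS3*.

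Lists of loci for floral stage and tissue were read in the same samples to describe that sample. The lists were assembled by locus ID from general knowledge of rice genes, and the tables used here do not pair these IDs with names, so that single loci are given by ID. Of 11 loci listed for anthers and male meiosis, 7 were lowest in replicate 2 among the wild-type samples, and of 7 loci listed for branching and meristems, 6 were highest there. The shares over all genes were not counted, and 4 of the 7 branching loci were below 1 FPKM in a wild-type sample. LOC_Os10g33780 of the branching list was at 4.83, 16.3, and 5.30 FPKM in the wild type and at 1.64, 0.419, and 2.33 FPKM in *ssh1*. Replicate 2 of the wild type was thus high for this locus where it was low for most members, and the part of stage in either pattern was not tested.

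The summed level of the anther list was 106 to 131 FPKM in the wild type and 66.3 to 82.7 FPKM in *ssh1*, without overlap. Of its 7 tested loci, 3 fell and 0 rose, beside 28.0% of all tested genes that fell, and their median log2 fold change was -0.41 against -0.14 for all tested genes. After median-of-ratios scaling 2 fell, with a median of -0.30, beside 19.2% of all tested genes. Of the 11 loci, 4 were below 1 FPKM in a wild-type sample. The summed level of the branching list overlapped, at 223 to 291 FPKM in the wild type and 194 to 228 FPKM in *ssh1*, and 2 of its 3 tested loci fell. The other, LOC_Os08g39890, was higher in every *ssh1* sample, at 67.0 ± 21.5 FPKM in the wild type and 106 ± 22.2 FPKM in *ssh1* (SD, n = 3 each). Its log2 fold change was 0.68 (limma adjusted p = 0.0699), and 0.82 after median-of-ratios scaling (limma adjusted p = 0.0383), by which it rose. The 4 leaf loci, 3 of them listed as light-harvesting genes, summed to 219 to 327 FPKM in the wild type and 252 to 563 FPKM in *ssh1*. The groups overlapped, and replicate 1 of *ssh1* was the highest *ssh1* sample for all 4. Of these loci 2 rose, beside 17.0% of all tested genes, and 0 fell. None of these lists had a locus at 0 in all 6 samples. Whether a shift in stage or tissue has a part in the lower level of the B, C, and D class genes was not tested.

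Of the other MADS-box loci of the flower, some fell and some rose. The list holds 13 loci of the *SEPALLATA*, *AGL6*, and *AP1*/*FUL* groups and other B sister genes, proteins of the first of these groups being the known partners of B and C class proteins. Of the 12 tested, 4 fell and 3 rose, with a median log2 fold change of -0.11. Among all tested genes 28.0% fell and 17.0% rose, and the counts are to be read against these shares. The summed level of the list was 1130 to 1337 FPKM in the wild type and 1165 to 1320 FPKM in *ssh1*, with group means of 1254 FPKM in both. After median-of-ratios scaling 2 fell and 3 rose, and the median was 0.02. By that scaling 3568 of the 18537 tested genes fell and 4015 rose. The largest fall was that of LOC_Os04g49150, from 60.2 ± 12.7 to 24.1 ± 4.48 FPKM (SD, n = 3 each; log2 fold change -1.28, limma adjusted p = 0.00366). The largest rise was that of LOC_Os03g54160, from 113 ± 17.7 to 244 ± 6.72 FPKM (SD, n = 3 each; log2 fold change 1.12, limma adjusted p = 0.000918), which passed the thresholds of the study. *OsMADS15* (LOC_Os07g01820) had 244 ± 9.73 and 228 ± 30.3 FPKM (SD, n = 3 each), its groups overlapped, and its log2 fold change of -0.11 became 0.03 after median-of-ratios scaling.

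Among 8 loci listed as regulators of floral organs, 5 of the 7 tested fell and 0 rose, beside 28.0% of all tested genes that fell. After median-of-ratios scaling 3 fell, beside 19.2% of all tested genes, and *SHAT1* and LOC_Os03g60430 no longer passed (limma adjusted p = 0.0511 and 0.0972). The 5 include *SNB* itself and its relative *SHAT1* (LOC_Os04g55560), known for its role in the abscission zone, which fell from 21.5 ± 3.86 to 13.98 ± 0.850 FPKM (SD, n = 3 each; log2 fold change -0.57, limma adjusted p = 0.0189, and -0.44 after median-of-ratios scaling). The steepest fall was that of LOC_Os01g03840, at 16.1, 10.4, and 13.8 FPKM in the wild type and at 1.28, 1.63, and 1.69 FPKM in *ssh1*. This is a log2 fold change of -2.50 (limma adjusted p = 0.000257), larger than that of any tested member and past the thresholds of the study, as *SNB* was. LOC_Os03g11600 fell from 76.3 ± 11.2 to 30.9 ± 7.35 FPKM (SD, n = 3 each; log2 fold change -1.30, limma adjusted p = 0.00353), and LOC_Os09g13630 was at 21.5 ± 0.718 and 23.3 ± 1.45 FPKM (SD, n = 3 each; limma adjusted p = 0.234).

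The common pattern of the 7 tested members over the 6 samples, the mean of their standardized log2 values, was highest in replicates 1 and 3 of the wild type (1.05 and 0.85), lower in replicate 2 (0.24), and lowest in replicate 1 of *ssh1* (-1.17, against -0.53 and -0.44 in replicates 2 and 3). *OsMADS4* followed it most closely (Pearson's r = 0.996 over 6 samples) and *OsMADS32* least (r = 0.564). Of the genes outside the list, LOC_Os08g44020 (r = 0.998), LOC_Os02g53340 (r = 0.995), and LOC_Os01g04720 (r = 0.995) were most like it. Of the other listed loci, LOC_Os03g60430 (r = 0.988), LOC_Os03g11600 (r = 0.983), and LOC_Os04g49150 (r = 0.980) were. The 6 points share the genotype difference, and each tested member is itself part of the common pattern, which raises its r. Of all tested genes 10.1% had an r above 0.9, so that the likeness is a description only.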

How the data were processed

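RNA-seq was performed on young panicles of the wild type and *ssh1*, with 3 replicates each. The authors mapped paired-end reads to the Nipponbare genome (IRGSP-1.0, MSU7 annotation) with TopHat2 and calculated the deposited FPKM per gene with Cuffdiff, whose versions are not given in the sources used here. Reads of *indica* and wild rice origin were thus counted on a *japonica* reference. FPKM holds no read numbers, so no depth or counting interval is given.

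Leaving out 4 repeated locus IDs left 55982 genes. The 18537 that averaged 1 FPKM or more were compared as log2(FPKM + 1) in R 4.3.3 with limma 3.58.1 (eBayes with a trend, genotype as the only term, Benjamini-Hochberg adjustment over all tested genes). The calculation was tested on simulated data. Within-sample ratios and the 1 low gene with a printed p were compared by exact permutation of the samples, two-sided (scipy 1.17.1). Plots were drawn with matplotlib 3.10.9. The adjusted p limit of 0.05 was used beside the thresholds of the study because Cuffdiff was not rerun.

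All 9 genes were named by rule, and loci of other lists past an adjusted p of 0.05 or by likeness. LOC_Os08g39890 passed that limit after median-of-ratios scaling and not before it, while *OsMADS15* and LOC_Os09g13630 were added after their values were seen. The genes and lists were chosen with earlier results of these data known. Gene names and classes of the members come from the list that defined them, and a RefSeq gene table holds 8 of the 9 names on the same chromosome but matched 0 of the locus IDs. No sequences were used here. Whether replicate numbers pair the samples is not stated. The alternatives were another pseudocount, other filters, scalings, and limma options, other adjusted p limits, the replicate block, and each replicate left out.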

Additional observations from a re-analysis of the deposited data

How the results depend on the processing

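All 7 tested members stayed lower in *ssh1* under every alternative that was run. *OsMADS2*, *OsMADS4*, and *OsMADS16* kept an adjusted p below 0.05 from limma in 15 of 15 alternatives each, and *OsMADS32* passed in 0 of 15. *OsMADS13* passed in 9 of 14. It was lost without the filter on low values (log2 fold change -1.06, limma adjusted p = 0.0523) and in 4 of the 6 fits that left out a sample. *OsMADS58* also passed with sample quality weights (log2 fold change -0.89, limma adjusted p = 0.04). Of the members 4 fell, with 3 to 6 over the fits lacking 1 replicate. In those fits 3288 to 5131 of the 18429 to 18613 tested genes fell. With a 2-fold limit as well, 0 members were lower with an adjusted p limit of 0.001, against 1 with a limit of 0.05. The count stayed at 0 in all 6 fits lacking 1 replicate.

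At the thresholds of the study 591 genes were higher and 356 lower in *ssh1* in limma. The study itself called more genes in either direction with Cuffdiff, which was not rerun. There were 338 and 149 when low genes were kept, 1089 and 879 with an adjusted p limit of 0.01, 1310 and 1103 with a limit of 0.05, and 0 and 0 with the replicate block, where the smallest adjusted p from limma was 0.00201. When one replicate was left out, 57 to 517 were higher and 9 to 274 lower. With the replicate block 4 members fell, as without it, beside 3455 of 18537 tested genes. The correlation of deviations between same-numbered samples was -0.103, -0.0732, and -0.169. With 3 samples per genotype, whose deviations sum to 0, these values cannot decide whether the numbers pair the samples. The ratio of the C class genes to *OsMADS16* reversed without replicate 2 of the wild type (-0.17) and without replicate 3 of *ssh1* (-0.06), with values from -0.17 to 0.17 over the fits. The 30 other alternatives of the 4 ratios stayed within 1 SD of their value. The causes were not tested. The error of single low FPKM values, as in *OsMADS21* and *OsMADS29*, is unknown.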
